A study of Mus musculus with 12 samples.

Results

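The genes described here make, load and regulate major histocompatibility complex (MHC) class I molecules. They were selected by symbol, as 10 of the 56941 genes in a table of RNA-seq counts, namely B2m, H2-K1, H2-D1, H2-T23, Tap1, Tap2, Psmb8, Psmb9, Psmb10 and Nlrc5. All 10 passed the filter on low counts, as did 14810 genes in all. The cells were 3T3-L1, a wild-type mouse embryonic fibroblast line of Swiss origin that can form adipocytes, grown as 1 line in culture. There were 4 conditions with 3 libraries each, collected after 24 hours: control (untreated), IL-4/13 (both type 2 cytokines, each 50 ng/mL), Inf (a cocktail of TNF-α, 20 ng/mL, with IL-17A, 50 ng/mL, plus IL-1β, 0.5 ng/mL) and IL-4/13 + Inf (all 5 cytokines at these doses). The comparisons asked what the type 2 cytokines IL-4 and IL-13 and the inflammatory cocktail each did to the fibroblasts, and what IL-4/13 added to the cocktail. Nothing in the labels says whether the 3 libraries of a condition came from separate cultures, so the P values measure the spread between these libraries, which may be technical.

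Nearly every nucleated cell displays peptides from its own proteins on class I molecules, where CD8+ T cells and NK cells inspect them. The proteasome cuts the proteins, the TAP1-TAP2 transporter carries the peptides into the endoplasmic reticulum, and there they are loaded onto a heavy chain paired with β2-microglobulin. Interferons are the best known inducers of the pathway. They also replace the catalytic subunits of the standard proteasome with those of the immunoproteasome, and NF-κB contributes to transcription of the class I genes.

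The members fell into 4 roles. B2m (ENSMUSG00000060802) encodes β2-microglobulin. H2-K1 (ENSMUSG00000061232) and H2-D1 (ENSMUSG00000073411) encode classical heavy chains, and H2-T23 (ENSMUSG00000067212) encodes the heavy chain of Qa-1, a nonclassical molecule recognised by NKG2 receptors. Tap1 (ENSMUSG00000037321) and Tap2 (ENSMUSG00000024339) encode the transporter. Psmb8 (ENSMUSG00000024338), Psmb9 (ENSMUSG00000096727) and Psmb10 (ENSMUSG00000031897) encode the immunoproteasome subunits, which stand in for Psmb5, Psmb6 and Psmb7. Nlrc5 (ENSMUSG00000074151) encodes the transactivator of class I genes.

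Of the 10 genes, 7 lie on chromosome 17, in or next to the MHC. In GRCm38 with GENCODE M21 (the submitters' processing notes name GRCm39, so these coordinates only locate the genes) H2-K1 spans 33996017 to 34000347 on the minus strand, and H2-D1 spans 35262730 to 35267499 on the plus strand. H2-T23 spans 36029773 to 36032855 on the minus strand. Psmb9 (34181987 to 34187764, minus), Tap1 (34187553 to 34197225, plus), Psmb8 (34197721 to 34201454, plus) and Tap2 (34203527 to 34216321, plus) follow one another. B2m lies on chromosome 2 (122147686 to 122153083, plus). Psmb10 (105935735 to 105938444, minus) and Nlrc5 (94434356 to 94527272, plus) lie on chromosome 8.

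Promoter sequences are shown for B2m, H2-K1, H2-D1 and H2-T23, the members with a match to a site for the interferon regulatory factors (IRFs), and for Tap1, whose window overlaps that of Psmb9. Each is the RefSeq window on GRCm38.p6 from 250 bases before to 50 bases after the annotated start, 5′ to 3′ on the gene's strand. The windows are chr2:122147437-122147736 (plus) for B2m, chr17:34000298-34000597 (minus, the first of 2 entries) for H2-K1, chr17:35262844-35263143 (plus) for H2-D1, chr17:36032652-36032951 (minus) for H2-T23 and chr17:34187306-34187605 (plus) for Tap1. Capitals mark a kappaB match (GGGNNTTNCC, the site of NF-κB) or an IRF core (AANNGAAA), searched on both strands. In none of these windows did the 2 kinds of match overlap.
B2m: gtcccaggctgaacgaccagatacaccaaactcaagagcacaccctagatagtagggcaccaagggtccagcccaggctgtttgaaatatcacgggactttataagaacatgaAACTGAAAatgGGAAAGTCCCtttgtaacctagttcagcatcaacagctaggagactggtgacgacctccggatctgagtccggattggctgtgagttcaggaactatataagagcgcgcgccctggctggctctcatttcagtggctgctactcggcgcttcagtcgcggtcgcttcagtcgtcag
H2-K1: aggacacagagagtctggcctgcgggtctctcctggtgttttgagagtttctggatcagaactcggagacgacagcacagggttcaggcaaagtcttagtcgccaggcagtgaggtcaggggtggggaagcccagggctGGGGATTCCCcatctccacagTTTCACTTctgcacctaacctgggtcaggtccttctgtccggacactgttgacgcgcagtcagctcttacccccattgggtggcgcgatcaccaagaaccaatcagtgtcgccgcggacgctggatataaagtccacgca
H2-D1: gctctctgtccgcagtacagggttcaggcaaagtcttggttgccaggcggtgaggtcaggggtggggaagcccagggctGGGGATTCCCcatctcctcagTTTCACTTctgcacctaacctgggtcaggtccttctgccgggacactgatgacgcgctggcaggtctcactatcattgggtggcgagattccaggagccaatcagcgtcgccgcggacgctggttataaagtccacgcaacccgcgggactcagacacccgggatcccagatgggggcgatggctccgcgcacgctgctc
H2-T23: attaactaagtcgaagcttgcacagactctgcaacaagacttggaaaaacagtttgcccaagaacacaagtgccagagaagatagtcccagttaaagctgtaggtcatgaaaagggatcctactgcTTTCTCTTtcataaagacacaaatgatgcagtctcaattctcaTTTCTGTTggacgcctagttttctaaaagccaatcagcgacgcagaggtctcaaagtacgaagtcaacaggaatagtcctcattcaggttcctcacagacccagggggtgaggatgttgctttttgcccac
Tap1: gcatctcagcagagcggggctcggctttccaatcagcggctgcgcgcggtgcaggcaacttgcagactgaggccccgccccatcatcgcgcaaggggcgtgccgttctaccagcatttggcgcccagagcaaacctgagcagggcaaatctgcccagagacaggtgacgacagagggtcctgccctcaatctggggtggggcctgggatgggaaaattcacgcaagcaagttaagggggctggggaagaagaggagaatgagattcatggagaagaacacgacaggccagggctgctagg

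A promoter entry was found for 8 of the 10 genes, and Tap2 and Nlrc5 are named only. The B2m, H2-K1 and H2-D1 windows each held 1 kappaB match and 1 IRF core, a pair of matches present in 1.16% of 32851 mouse promoters of the same length. In H2-K1 and H2-D1 the paired matches had the same letters, and these windows were identical at 211 of 239 aligned bases (88.3%). H2-T23 held 2 IRF cores and no kappaB match. Among all promoters, 23.9% held an IRF core and 4.79% a kappaB match. The RefSeq starts of Psmb9 and Tap1 lie 226 bases apart on opposite strands, so their windows share 275 bases. That stretch held neither match. Psmb8 held a GAS match (TTCNNNGAA, an interferon-gamma activated site), which 8.3% of promoters held. A CCAAT box occurred in 6 of the 8 genes and in 37.4% of promoters, and Psmb10 held none of these motifs. A match is a run of letters in a reference window, and binding was not measured here.

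**Figure D1:**
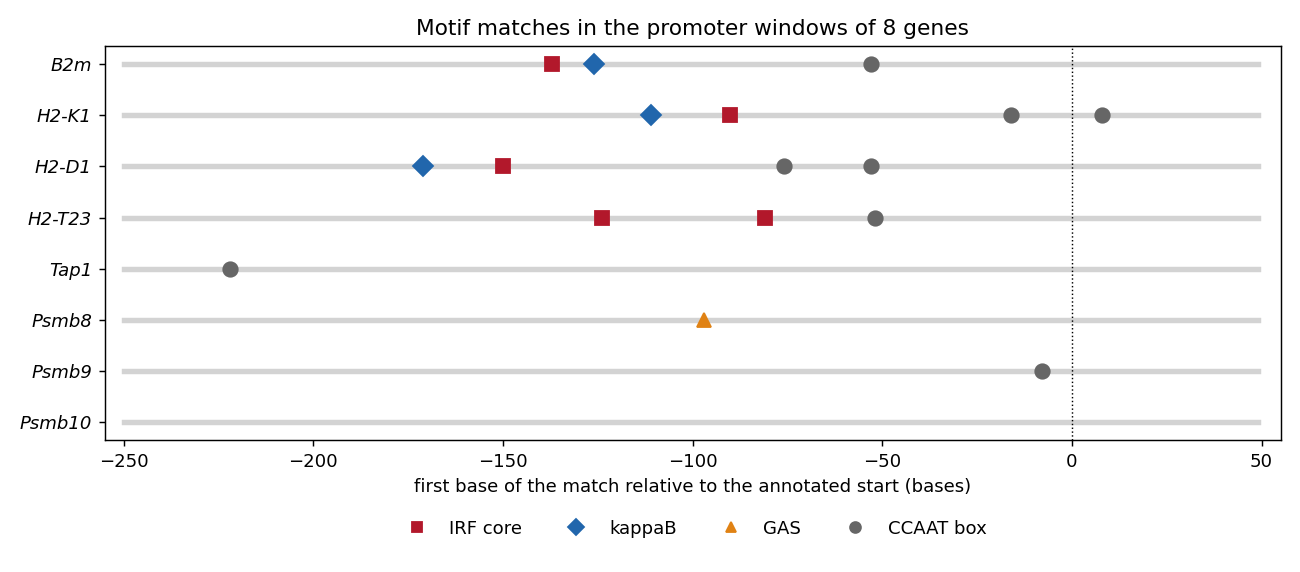
Positions of motif matches (IRF core, kappaB, GAS and CCAAT box) in the promoter windows of 8 genes, by distance in bases from the annotated start (x axis, 0 is the start). B2m, H2-K1 and H2-D1 carry a kappaB match beside an IRF core, H2-T23 carries 2 IRF cores, and Tap1 and Psmb9 carry a CCAAT box alone.

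The H2 genes resemble one another, so their counts carry an uncertainty that the other members do not. Of all 50-base stretches in H2-K1 transcripts, 8.11% also occurred in another gene, most often H2-D1 (6.52%). For H2-D1 the share was 14.3%, most often with H2-Q1 (7.40%), and for H2-T23 it was 15%, most often with the pseudogene H2-T-ps (6.17%). Tap1 and Tap2 shared under 1% of their stretches, and B2m, Psmb8, Psmb9, Psmb10 and Nlrc5 shared none. The reference used for this comparison is C57BL/6J, whose H2 alleles need not be those of a Swiss-derived line. How reads matching several genes were counted is not given in the sources used here.

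In GENCODE M21, antisense neighbours overlap 8 of the 10 genes. Their counts averaged 0.1 CPM (read counts scaled to a common library size) or less in every condition, with 2 exceptions. Tap1 and Psmb9 overlap each other head to head over 212 bases in GENCODE M21. With the RefSeq starts of the promoter windows, which lie 226 bases apart, they do not overlap. The transcript 9330175E14Rik overlaps Nlrc5 by 748 bases and averaged 1.42 CPM in control and 4.16 CPM with Inf. The libraries were stranded, but the strand setting of the counting is not stated, so exchange of reads between these partners was not tested.

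Depth ran from 13446005 to 20775769 counts per library. Every pair of replicate libraries differed by more than sampling noise. As a list, the 10 fibroblast markers summed to 16700 to 19400 CPM in control and 14300 to 15100 with IL-4/13. They summed to 13800 to 15300 CPM with Inf and 11800 to 12100 with IL-4/13 + Inf. With Inf against control 4 were called higher and 5 lower (calls are defined below), beside 16.3% and 15.3% of all tested genes. Dcn averaged 103 CPM in control and 1756 with Inf, and Lum 2.25 and 22.4 CPM. Col1a2 averaged 5541 CPM in control and 3813 with Inf. Of the 12 macrophage and dendritic cell markers, Tyrobp had no counts in any library and Ptprc averaged at most 0.11 CPM. The list nevertheless summed to 20.4 to 24.1 CPM in control and 24.1 to 26.5 with IL-4/13, against 47.1 to 61.9 with Inf and 46.3 to 52.7 with IL-4/13 + Inf, with Cd14 at 14.9 CPM in control and 44.7 with Inf. The part of these markers in the results was not tested. T, B and NK cell markers summed to at most 0.337 CPM in any library, with 6 of 8 at 0 throughout. Of 6 adipocyte markers, 4 had at most 3 counts in every library, but Fabp4 averaged 11.3 CPM in control, 16.2 with IL-4/13, 30.1 with Inf and 19.4 with IL-4/13 + Inf, and Pparg 18.1, 21.5, 7.71 and 10.8 CPM. That list summed to 28.1 to 31.3 CPM in control, 35.6 to 41.6 with IL-4/13, 36.1 to 39.7 with Inf and 28 to 32.8 with IL-4/13 + Inf. The part of these adipocyte markers in the results was not tested either. In the other lists, 4 of 5 keratinocyte markers had at most 3 counts in every library. The exception, Krt10, averaged 4.84 CPM in control, 3.57 with IL-4/13, 5.36 with Inf and 4.03 with IL-4/13 + Inf. The keratinocyte list summed to 3.05 to 6.18 CPM, and its part in the results was not tested. The 5 endothelial markers summed to at most 2.19 CPM. In RNA from a whole culture, more cells expressing a gene and more RNA per cell cannot be told apart.

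In unstimulated fibroblasts B2m, H2-D1 and H2-K1 were well above the other 7 of the 10 genes. Per kilobase of the principal transcript, B2m averaged 675 CPM (range over 3 libraries, 648 to 704). H2-D1 averaged 219 (207 to 233) and H2-K1 210.0 (199 to 223), ranges that overlap. Psmb10 came next at 29.9 (28.1 to 32.7), followed by Tap1 at 10.3 (9.23 to 11.3) and Tap2 at 4.91 (4.20 to 5.35), each apart from its neighbours. Nlrc5 (2.64), H2-T23 (2.45), Psmb9 (2.23) and Psmb8 (2.06) formed the bottom of the order with overlapping ranges. Outside the 10 genes, the constitutive subunit gene Psmb6, at 197 (192 to 205), overlapped H2-K1. With all 5 cytokines B2m still led at 957 CPM per kilobase, and H2-K1 at 480.0 (470.0 to 486) stood above H2-D1 at 438 (426 to 446) without overlap. Per kilobase of the longest transcript instead, H2-D1 led H2-K1 without overlap in control (219 against 181) and with all 5 cytokines (438 against 415). The order of H2-K1 and H2-D1 thus depends on the transcript length used. On that length Psmb6 in control, at 163 (159 to 169), lay below H2-K1 (172 to 193).

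**Figure D2:**
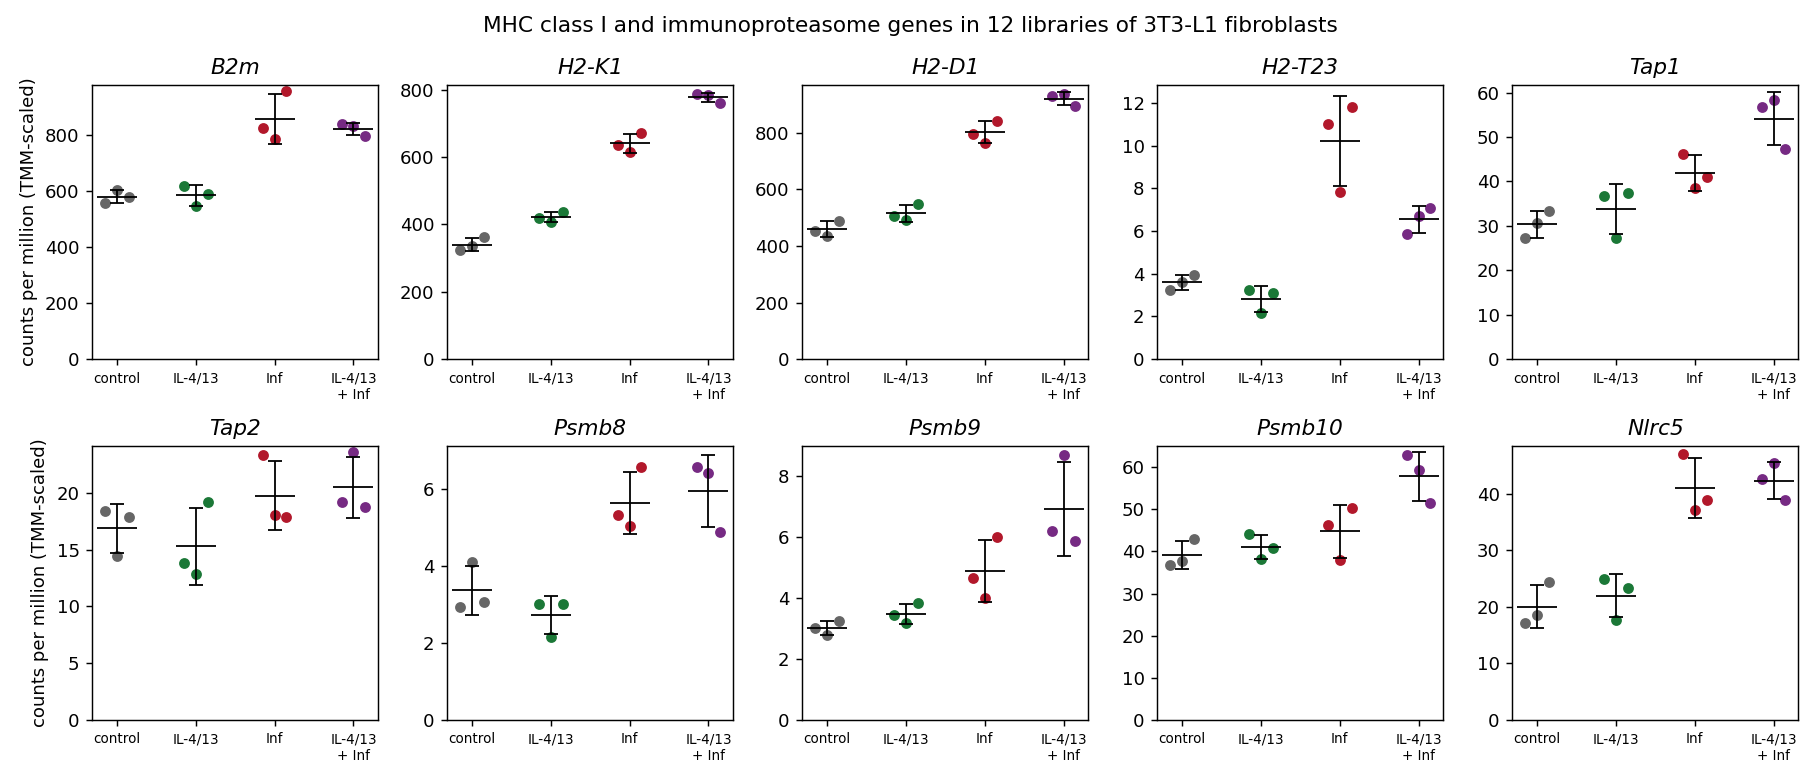
TMM-scaled CPM of the 10 genes in each of 12 libraries (points, 3 per condition), with the mean and SD (bars), on linear axes that start at 0. With Inf, 8 genes sit wholly above control (23.5% of all tested genes do), H2-T23 peaks with Inf alone (7.84 to 11.8 CPM), and H2-K1 rises at each step.

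Inf raised most of the 10 genes. Between Inf and control, 8 of the 10 genes were called higher and none lower, where a call needs a Benjamini-Hochberg adjusted P below 0.05 over all genes and a log2 fold change beyond 0.25 in edgeR's quasi-likelihood test. Among all tested genes, 16.3% were called higher and 15.3% lower. The 8 genes also had every Inf library above every control library, as did 23.5% of all tested genes. The median log2 fold change of the 10 genes was 0.71, against 0.01 over all genes. The genes not called were Tap2 and Psmb10.

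In log2 fold change with Inf, the light chain gene B2m rose by less than the classical heavy chain genes, a difference that was not tested. B2m measured 557, 605 and 579 CPM in the control libraries, and 826, 786 and 959 CPM with Inf. All Inf libraries lay above all control libraries, and the log2 fold change was 0.56 ± 0.06 (SE), with an adjusted P of 1.28e-06. H2-K1 measured 323, 336 and 361 CPM in control and 635, 616 and 671 CPM with Inf, a log2 fold change of 0.91 ± 0.04 and an adjusted P of 4.6e-17. H2-D1 went from 454, 435 and 489.8 CPM to 797, 766 and 843 CPM, with a log2 fold change of 0.80 ± 0.05 and an adjusted P of 1.45e-14. For each of the classical heavy chains the groups were well apart, and the gap between group means was several times the SD within a group.

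H2-T23 had the largest fold change of the 10 genes from a low level. Its control libraries held 3.26, 3.60 and 3.96 CPM and its Inf libraries 11.03, 7.84 and 11.8 CPM. The groups did not overlap, although the Inf libraries were widely spread, and the log2 fold change was 1.49 ± 0.17, with an adjusted P of 1.97e-08. Nlrc5, the transactivator, measured 17.1, 18.5 and 24.3 CPM in control and 46.9, 37.0 and 38.9 CPM with Inf. Every Inf library was above every control library, with a log2 fold change of 1.03 ± 0.15 and an adjusted P of 8.87e-05.

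The transporter genes differed in their calls. Tap1 measured 27.3, 30.5 and 33.2 CPM in control and 46.3, 38.4 and 40.9 CPM with Inf, and rose by a log2 fold change of 0.46 ± 0.12 (adjusted P = 0.00674). Tap2 measured 18.4, 14.4 and 17.9 CPM in control and 23.3, 18.1 and 17.9 CPM with Inf. The Tap2 groups overlapped, and its log2 fold change of 0.22 had a 95% interval from -0.07 to 0.51 (adjusted P = 0.262). These intervals overlap, and the difference between the transporter genes was not tested.

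Among the immunoproteasome subunits, Psmb8 and Psmb9 rose with Inf from low counts. Psmb8 measured 2.91, 4.09 and 3.06 CPM in control and 5.32, 5.02 and 6.55 CPM with Inf (log2 fold change 0.74 ± 0.19, adjusted P = 0.00195). Psmb9 measured 3.03, 2.79 and 3.24 CPM in control and 4.65, 3.99 and 6.002 CPM with Inf (log2 fold change 0.68 ± 0.20, adjusted P = 0.00586). For both genes the groups did not overlap, but the Psmb9 call was lost without Inf replicate 3, its highest Inf library (adjusted P = 0.0563). Psmb10 measured 36.9, 37.6 and 42.9 CPM in control and 46.3, 37.9 and 50.3 CPM with Inf, groups that overlapped. Its log2 fold change was 0.19, with a 95% interval from -0.002 to 0.381 and an adjusted P of 0.134, and it was called higher when Inf replicate 2, its lowest Inf library, was left out (adjusted P = 0.00479).

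IL-4/13 without the cocktail moved 1 of the 10 genes. H2-K1 was called higher, 9 were not called, and none was called lower, against 2.78% of all tested genes called higher and 2.57% lower. The H2-K1 libraries held 419.6, 406 and 436 CPM with IL-4/13, all above the 3 control libraries. The log2 fold change was 0.31 ± 0.04, with an adjusted P of 1.1e-05. H2-D1 lay in the same direction, at 506, 491 and 549 CPM, also above every control library, but its log2 fold change of 0.17 ± 0.05 (adjusted P = 0.0254) was within the fold threshold. H2-T23 measured 3.215, 2.14 and 3.09 CPM, all just below the control libraries, with an adjusted P of 0.357 at a log2 fold change of -0.35. For B2m the 95% interval of the log2 fold change ran from -0.11 to 0.14. Its libraries held 619, 547 and 589 CPM.

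The remaining genes overlapped control with IL-4/13 and were not called. Tap1 measured 36.6, 27.3 and 37.5 CPM and Tap2 13.9, 12.8 and 19.2 CPM, each within or on either side of its control libraries. Nlrc5 measured 24.8, 17.7 and 23.3 CPM. The immunoproteasome subunits likewise showed no separation from control. Psmb8 measured 3.00, 2.14 and 3.01 CPM, Psmb9 3.43, 3.17 and 3.82 CPM, and Psmb10 44.0, 38.3 and 40.7 CPM.

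With all 5 cytokines, 9 of the 10 genes were called higher than control and none lower, beside 13.4% of all genes called higher and 11.5% lower. The median log2 fold change was 0.85, against 0.00 over all genes. All 10 genes had every IL-4/13 + Inf library above every control library, as did 23.4% of all tested genes. This includes Tap2, whose log2 fold change of 0.28 was not called (adjusted P = 0.173). Psmb9 (1.20 ± 0.19) and H2-K1 (1.19 ± 0.04) had the highest log2 fold changes, followed by Nlrc5 (1.08 ± 0.15), H2-D1 (1.00 ± 0.05), H2-T23 (0.85 ± 0.18), Tap1 (0.84 ± 0.12) and Psmb8 (0.84 ± 0.19). Psmb10 (0.57 ± 0.10, adjusted P = 8.99e-05) and B2m (0.50 ± 0.06, adjusted P = 5.28e-06) had the lowest of those called. Comparisons with control share the 3 control libraries, so their values are set side by side and not as independent results.

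**Figure D3:**
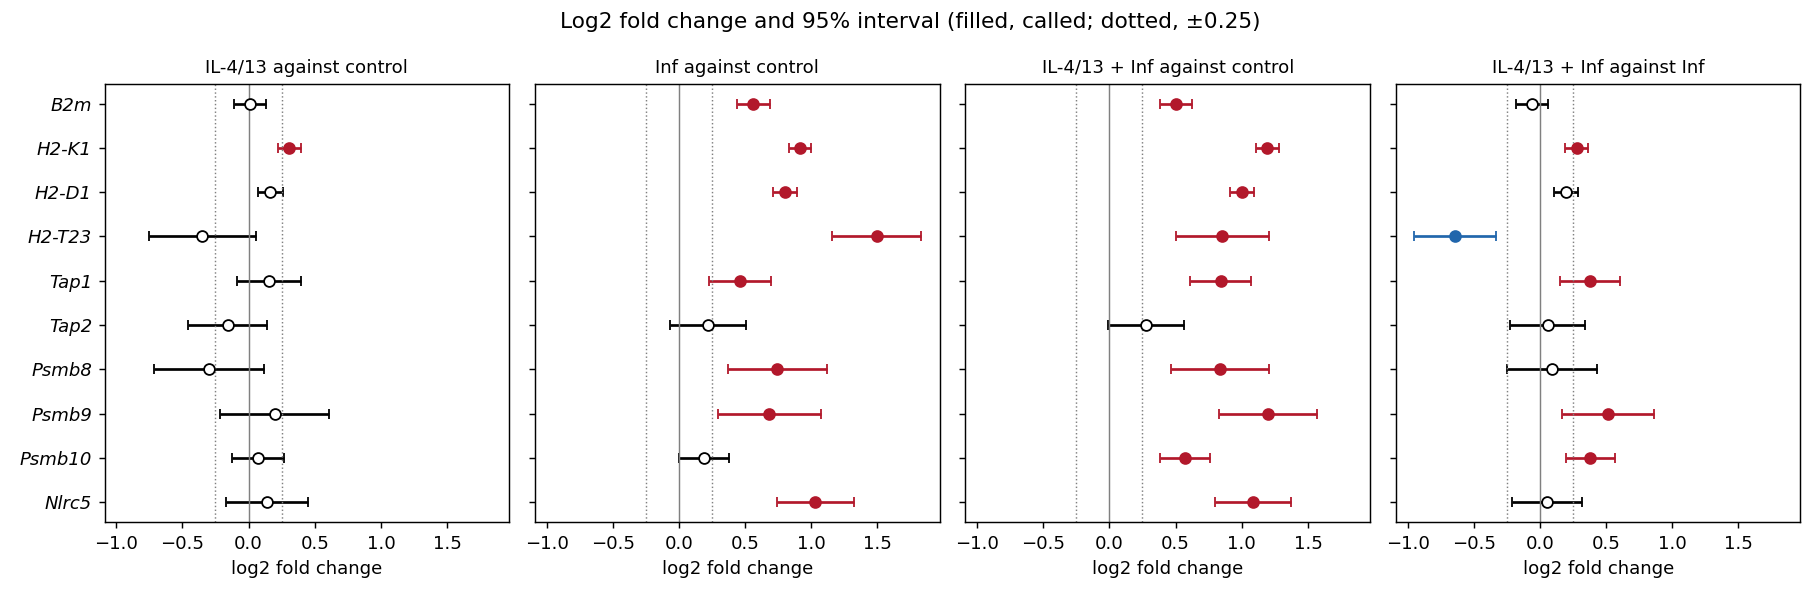
Log2 fold change (x axis) of the 10 genes in 4 comparisons, with 95% intervals as bars, filled points for called genes (red higher, blue lower), open points for genes not called, and dotted lines at the fold threshold of 0.25. With IL-4/13 alone only H2-K1 is filled, and in IL-4/13 + Inf against Inf 4 genes are higher and H2-T23 is lower.

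IL-4/13 on top of Inf raised some members and lowered H2-T23. In IL-4/13 + Inf against Inf, 4 of the 10 genes were called higher and 1 lower, against 7.55% higher and 7.00% lower over all tested genes. H2-K1 measured 787, 783 and 761.5 CPM with IL-4/13 + Inf, all above the Inf libraries, with a log2 fold change of 0.28 ± 0.04 (adjusted P = 1.39e-05). H2-D1 measured 931, 938 and 895 CPM and also stood clear of Inf, but its log2 fold change of 0.20 ± 0.05 (adjusted P = 0.00186) was within the fold threshold. H2-T23 went the other way. Its IL-4/13 + Inf libraries held 5.85, 6.69 and 7.09 CPM, all below the Inf libraries, and the log2 fold change was -0.64 ± 0.16 (adjusted P = 0.00304). B2m, at 839, 831 and 798 CPM, overlapped Inf, and its 95% interval ran from -0.18 to 0.06.

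Psmb10 and Tap1 were also higher with IL-4/13 + Inf than with Inf. Psmb10 measured 62.9, 59.2 and 51.5 CPM, all above the Inf libraries, with a log2 fold change of 0.38 ± 0.09 (adjusted P = 0.00635). Tap1 measured 56.7, 58.3 and 47.4 CPM, also all above, with a log2 fold change of 0.38 ± 0.12 (adjusted P = 0.0287). Psmb9, at 6.20, 8.71 and 5.87 CPM, was called with a log2 fold change of 0.52 ± 0.18 (adjusted P = 0.0332), although its lowest library lay within the Inf range. The calls of Tap1 and Psmb9 were fragile. Tap1 was no longer called without Inf replicate 2, Inf replicate 3, IL-4/13 + Inf replicate 1 or IL-4/13 + Inf replicate 2 (adjusted P up to 0.115). Psmb9 was no longer called without Inf replicate 1, Inf replicate 2 or IL-4/13 + Inf replicate 2 (adjusted P up to 0.29), nor in DESeq2 or in a fit of the 6 libraries alone, where adjusted P reached 0.0587. Without Inf replicate 2 or without IL-4/13 + Inf replicate 2, 2 of the 10 genes were called higher, beside 1181 and 1021 of all tested genes. Psmb8 measured 6.55, 6.41 and 4.86 CPM, Nlrc5 42.5, 45.4 and 38.9 CPM, and Tap2 19.2, 23.6 and 18.8 CPM. All 3 overlapped Inf.

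The interaction term compared the effect of IL-4/13 in the presence of the cocktail with its effect in its absence. None of the 10 genes was called in either direction in edgeR's quasi-likelihood test or in DESeq2, and 1 had an unadjusted P below 0.05, Psmb10, whose response to IL-4/13 was higher in the presence of Inf by 0.31 on the log2 scale (SE 0.14, unadjusted P = 0.0368, adjusted P = 0.301). Over all genes 1.52% were called higher and 1.59% lower. H2-K1 had nearly the same log2 response to IL-4/13 without Inf (0.31) and with it (0.28), and the 95% interval of the difference ran from -0.15 to 0.09. For H2-T23 the interval was wide, from -0.80 to 0.22.

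Each immunoproteasome subunit replaces a constitutive subunit, and the share of the pair contributed by the immunoproteasome gene was computed in each library per length of the longest transcript. The constitutive genes themselves were called in no comparison. With Inf against control their log2 fold changes were 0.22 for Psmb5, 0.07 for Psmb6 and -0.13 for Psmb7. The Psmb9 share of the pair with Psmb6 was 0.642% ± 0.067 (SD, n = 3) in control, 0.795% ± 0.08 with IL-4/13, 0.978% ± 0.16 with Inf and 1.39% ± 0.27 with IL-4/13 + Inf. All libraries of each treated condition lay above control, at P = 0.1 in an exact two-sided permutation test, the smallest value that 3 against 3 libraries allow and 0.2 after Benjamini-Hochberg adjustment over the 12 share comparisons, so none of them could pass 0.05. The Psmb10 share of the pair with Psmb7 was 40.6% ± 3.0 in control, 40.7% ± 1.3 with IL-4/13, 46.0% ± 2.8 with Inf and 50.6% ± 2.5 with IL-4/13 + Inf, and only the last group was wholly above control (exact permutation P = 0.1, adjusted 0.2).

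For Psmb8 the share of the pair with Psmb5 was 4.21% ± 0.79 in control, 3.42% ± 0.46 with IL-4/13, 5.97% ± 0.76 with Inf and 6.59% ± 1.4 with IL-4/13 + Inf. The Inf libraries lay above control (exact permutation P = 0.1, adjusted 0.2), and the IL-4/13 + Inf libraries overlapped it. The Psmb8 share is uncertain because 49.4% of the 50-base stretches of Psmb5 also occur in the gene model Gm3375, which was itself counted at 85.4 CPM in control beside 35.9 CPM for Psmb5. Absolute shares depend on the transcript length used. With the principal transcript the control share was 4.9% for Psmb8, 1.13% for Psmb9 and 21.8% for Psmb10, while the order of the libraries does not change with length.

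**Figure D4:**
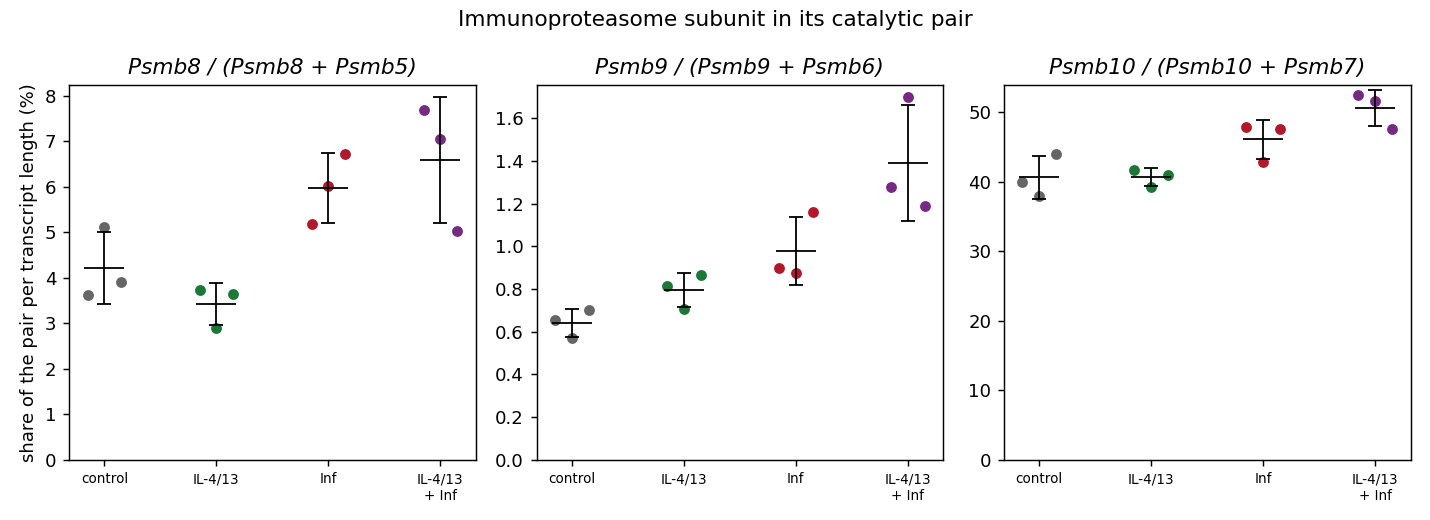
Share of each catalytic pair contributed by the immunoproteasome gene (y axes, %, counts per length of the longest transcript) in each library (points), with mean and SD (bars). The Psmb9 share is 0.569 to 0.702% in control and 1.19 to 1.70% with IL-4/13 + Inf, and the Psmb10 share is 37.9 to 43.9% in control and 47.6 to 52.4% with IL-4/13 + Inf.

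Several other class I heavy chain genes rose with Inf. Of 29 listed H2 genes, members included, 14 were tested. With Inf, 10 were called higher and none lower, beside 16.3% and 15.3% of all tested genes. The median log2 fold change of the 14 was 1.33, against 0.01 over all genes. With IL-4/13 + Inf against control 12 were called higher, beside 13.4% of all tested genes. H2-K2, H2-Bl, H2-M3 and H2-M5 were not called with Inf. The largest fold changes at 5 CPM or more were those of H2-T10 and H2-T22, which encode ligands of γδ T cell receptors. H2-T10 averaged 20.8 CPM in control, 20.2 with IL-4/13, 159.6 with Inf and 136 with IL-4/13 + Inf, with a log2 fold change of 2.94 ± 0.07 for Inf against control (adjusted P = 1.58e-25). In IL-4/13 + Inf against Inf, H2-T10 lay wholly below Inf, with a log2 fold change of -0.23 (adjusted P = 0.00269) within the fold threshold. H2-T22 averaged 10.8 CPM in control and 76.3 CPM with Inf (2.82 ± 0.08, adjusted P = 4.26e-23). These genes share 30.3% and 32.0% of their 50-base stretches with each other, so reads could be exchanged between them. H2-Q4 rose from 18.1 to 49.5 CPM (1.45 ± 0.09, adjusted P = 4.15e-13). H2-M3, which presents formylated peptides, averaged 15.8 CPM in control and 17 with Inf and was not called (adjusted P = 0.411).

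All 23 class I heavy chain rows were summed into 1 row and refitted, so that counted reads exchanged among them no longer matter. The sum is mostly H2-K1 and H2-D1, so it cannot check H2-T23, H2-T10 or H2-T22. Reads left out of the counts are not recovered by it. The sum ran from 843 to 930 CPM in control and from 1690 to 1840 CPM with Inf, a log2 fold change of 1.02 ± 0.04 with an adjusted P of 2.4e-18. For IL-4/13 against control the log2 fold change of the sum was 0.21 ± 0.04 (adjusted P = 0.00136), and for IL-4/13 + Inf against Inf it was 0.17 ± 0.04 (adjusted P = 0.00285). Neither passed the fold threshold. H2-K1 and H2-D1 together made 91.3 to 92.1% of the sum in control, 92.6 to 93.0% with IL-4/13, 80.8 to 82.2% with Inf and 84.6 to 85.5% with IL-4/13 + Inf. The share of the classical genes was thus lower in every library with Inf than in every library without it.

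**Figure D5:**
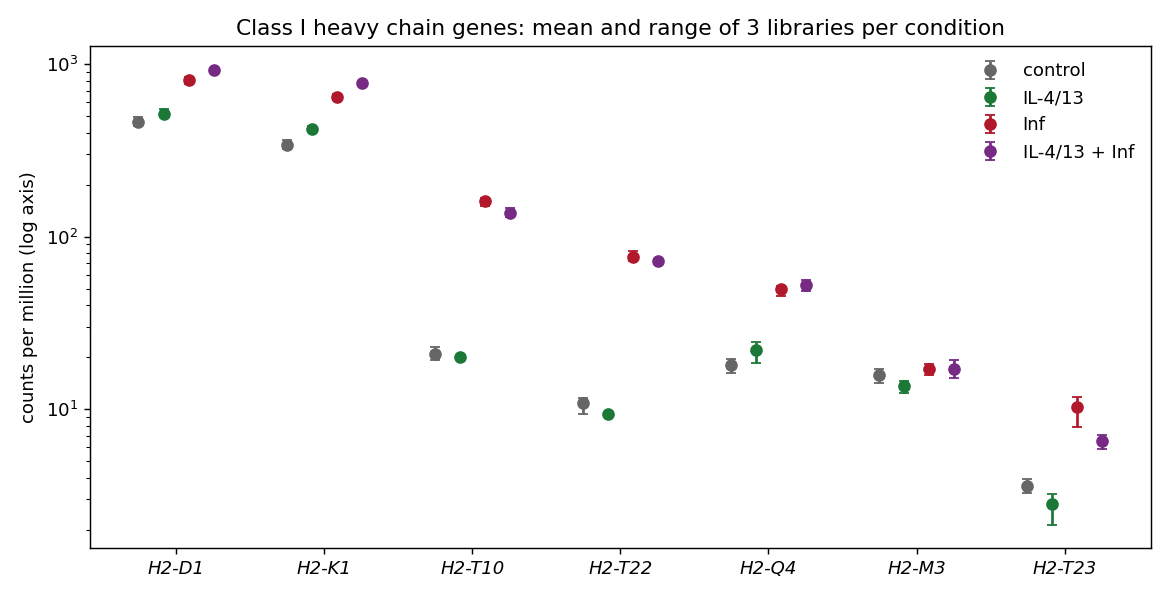
Mean CPM on a log axis of 7 class I heavy chain genes in the 4 conditions, with bars from the lowest to the highest of 3 libraries. H2-T10 goes from 20.8 CPM in control to 159.6 CPM with Inf, while H2-M3 stays between 13.6 and 17.1 CPM in all conditions.

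Of the 8 peptide loading and trimming genes, 3 were called higher with Inf and none lower, beside 16.3% and 15.3% of all tested genes. Tapbp, encoding tapasin, which bridges TAP and the heavy chain, rose from 203 to 311 CPM (log2 fold change 0.61 ± 0.05, adjusted P = 1.12e-11). Its relative Tapbpl rose by 0.62, and Npepps, a cytosolic aminopeptidase, by 0.36. Erap1, which trims peptides in the endoplasmic reticulum, was not called with Inf but was higher with IL-4/13 (0.26 ± 0.07, adjusted P = 0.0141) and with IL-4/13 + Inf against Inf (0.43 ± 0.07, adjusted P = 1.34e-05). The folding chaperone genes Calr, Canx and Pdia3 were called in no comparison, although Calr (log2 fold change 0.246 for IL-4/13 + Inf against Inf, adjusted P = 3.03e-06) missed by the fold threshold alone. Among 11 further subunits of the proteasome core, Psma6 alone was called with Inf (0.59), beside 16.3% higher and 15.3% lower over all tested genes.

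The 9 proteasome activators and assembly factors included 2 that rose with Inf and 1 that fell, shares close to the 16.3% and 15.3% over all tested genes. Psme1 and Psme2, which form the PA28 cap that associates with the immunoproteasome, rose by log2 fold changes of 0.31 ± 0.06 (adjusted P = 2.84e-05) and 0.33 ± 0.10 (adjusted P = 0.00646). Psme3, encoding a nuclear relative of that cap, fell by 0.35 on the log2 scale with Inf and was higher by 0.32 with IL-4/13 + Inf against Inf.

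Of the regulators of class I transcription, 13 of 14 were tested. With Inf 9 were called higher and none lower, beside 16.3% and 15.3% of all tested genes. With IL-4/13 4 were called higher, beside 2.78% of all tested genes. Nfkb1, encoding the p105/p50 subunit of NF-κB, averaged 196 CPM in control, 449.8 with IL-4/13, 466 with Inf and 857 with IL-4/13 + Inf. Its log2 fold change was 1.20 ± 0.04 with IL-4/13 and 1.25 ± 0.04 with Inf. Rela, encoding another NF-κB subunit, rose with Inf by 0.39 ± 0.05 (adjusted P = 2.32e-07) and not with IL-4/13 (0.04, adjusted P = 0.752). Irf1 averaged 55.2 CPM in control and 60.9 with Inf, a log2 fold change of 0.14 within the fold threshold (adjusted P = 0.0422). Relb (1.145) and Nfkb2 (0.64) were also called higher with Inf. So were Stat2 (0.67, adjusted P = 0.00906) and Irf9 (0.54, adjusted P = 0.000326).

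Interferon transcripts were at or near 0. Ifng, Ifna1 and Ifna2 had no counts in any library, where 3 counts correspond to 0.146 to 0.221 CPM, and Ifnb1 reached at most 0.214 CPM. All 4 receptor genes were expressed, and with Inf 3 of them were called higher, namely Ifnar2 (log2 fold change 1.82), Ifngr2 (1.40) and Ifnar1 (0.90). Over all tested genes 16.3% were called higher with Inf. Ifngr2 also rose with IL-4/13, from 50.3 to 78.8 CPM (0.65).

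MHC class II transcripts were scarce. Of 9 class II genes and chaperones 4 were tested, and none was called with Inf or with IL-4/13. The shares of all tested genes called higher and lower were 16.3% and 15.3% with Inf, and 2.78% and 2.57% with IL-4/13. H2-Ab1 averaged at most 0.15 CPM in any condition, and the class II transactivator Ciita at most 0.13 CPM. H2-DMa was lower with IL-4/13 + Inf than control (6.40 to 4.62 CPM, log2 fold change -0.48, adjusted P = 0.0334).

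Among 9 class I-like and inhibitory ligand genes, 3 were called higher with Inf and none lower, beside 16.3% and 15.3% of all tested genes. Hfe, an iron-regulating class I-like gene, averaged 1.42 CPM in control, 4.36 with Inf and 6.95 with IL-4/13 + Inf. Cd1d1, which presents lipids, averaged 7.05 CPM in control, 12.7 with Inf and 7.47 with IL-4/13 + Inf, and Fcgrt, the neonatal Fc receptor, averaged 31.9, 43.5 and 29.5 CPM in those conditions. With IL-4/13 + Inf against Inf, Cd1d1 had a log2 fold change of -0.77 ± 0.12 (adjusted P = 1.01e-05) and Fcgrt of -0.56 ± 0.07 (adjusted P = 3.86e-07), the direction also measured for H2-T23. Hfe was called the other way in that comparison (0.68 ± 0.18, adjusted P = 0.0067). Fcgrt was also called lower with IL-4/13 against control, at 22.4 CPM (log2 fold change -0.505, adjusted P = 1.78e-05).

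The members resembled one another to different degrees. Each gene's log2 CPM was centred on its mean over the 12 libraries and compared with the median of the 10 centred profiles. The root mean square difference was 0.07 for H2-D1, 0.12 for H2-K1, 0.15 for Tap1, 0.16 for B2m and 0.18 for both Psmb9 and Nlrc5. It was 0.21 for Psmb8, 0.23 for Psmb10, 0.29 for Tap2 and 0.46 for H2-T23, which therefore had the profile least like the others. Outside the members, the 5 nearest of the tested genes with at least 5 CPM included Pnp (purine nucleoside phosphorylase, 0.07), Lgals9 (galectin-9, 0.08), Gm6548 (0.09) and Rcan1 (a regulator of calcineurin, 0.10). Pnp averaged 37.0 CPM in control, 38.9 with IL-4/13, 58.1 with Inf and 65.1 with IL-4/13 + Inf.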

How the data were processed

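RNA from 12 samples of 3T3-L1 fibroblasts was selected by polyA and sequenced as stranded mRNA libraries, all with 1 batch label. The authors aligned reads with STAR to GRCm39 and counted them with featureCounts, per the submitters' processing notes, and deposited raw counts per gene. Versions, the annotation, the strand setting and the treatment of multimapping reads are not given in the sources used here.

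Symbols came from the table and, for the 23268 rows that name none there, from a table of gene names. Counts were filtered with filterByExpr (minimum 10, total 15) and scaled by TMM. All 12 libraries entered 1 robust quasi-likelihood fit in edgeR 4.0.16 (R 4.3.3). The adjusted P values in the report come from it, except where the text names another test, a refit or a left-out library. DESeq2 1.42.0, other scalings, filters and thresholds, fits of 2 conditions and fits leaving out each library were alternatives. The code was tested on simulated data. Intervals and the floor of 3 counts cover counting error or the fit alone.

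The members and the lists of related and marker genes were chosen with earlier results of these data known. From each list the text names up to 4 called genes with the largest fold change and a mean of at least 5 CPM in 1 condition, besides the catalytic counterparts, Psme1, Psme2, Irf1, Rela and Nfkb1. A further gene that this rule names is not reported here. H2-K2, H2-Bl, H2-M3, H2-M5, Calr, Canx, Pdia3, Nfkb2, Irf9, Gm3375, the marker genes and the genes named as absent or scarce were chosen after their values were seen. Pattern likeness used log2 CPM with a prior count of 2.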

Additional observations from a re-analysis of the deposited data

Results flagged for a closer look

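None of the 10 genes met a rule for a closer look. In the related lists, 4 genes responded to IL-4/13 differently with and without Inf, by the interaction term in edgeR's quasi-likelihood test. They were 2 of 13 tested regulators, 1 of 4 tested interferon receptor genes and 1 of 9 tested ligand genes, all called lower. No gene of the other related lists was called. This stands beside 1.52% of all tested genes called higher and 1.59% lower. Relb had a log2 response to IL-4/13 of 0.36 without Inf and -0.04 with it, a difference of -0.399 (adjusted P = 0.0322). Nfkb1 responded by 1.20 without Inf and 0.88 with it, a difference of -0.318 (adjusted P = 0.000848). Ifnar2 responded by 0.08 and -0.44, a difference of -0.519 (adjusted P = 0.00118). Cd1d1 responded by -0.07 and -0.77, a difference of -0.692 (adjusted P = 0.0188).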

How the results depend on the processing

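The counts of genes called among the 10 were within 1.5 times the main count with DESeq2, other scalings, other filters on low counts and fits of 2 conditions. At a log2 threshold of 0, 2 were higher with IL-4/13 against control, beside 667 of the 14810 tested genes. At a threshold of 1 the counts higher than control were 0 for IL-4/13, 2 for Inf and 4 for IL-4/13 + Inf. Among all tested genes they were 87, 786 and 714. For IL-4/13 + Inf against Inf the count was 0 in either direction, beside 133 tested genes higher and 105 lower. At an adjusted P of 0.01, 2 were higher in that last comparison, beside 904 of all tested genes. Leaving out single libraries gave 2 to 4 there, beside 977 to 1189 of all tested genes.

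Replacing H2-T23 by the summed heavy chains turned its log2 fold change to 0.209 for IL-4/13 against control and to 0.175 for IL-4/13 + Inf against Inf, since the sum is mostly H2-K1 and H2-D1. For H2-D1 the interaction turned to -0.033. Leaving out single libraries turned the sign of values that were not called. For IL-4/13 against control B2m ranged from -0.031 to 0.058. For IL-4/13 + Inf against Inf B2m ranged from -0.116 to 0.032, Tap2 from -0.056 to 0.19 and Nlrc5 from -0.016 to 0.161. In the interaction B2m ranged from -0.129 to 0.024, H2-K1 from -0.074 to 0.013, H2-D1 from -0.013 to 0.08 and Nlrc5 from -0.252 to 0.026. Psmb7 ranged from -0.049 to 0.041 for IL-4/13 + Inf against control. The cause was not tested. Tap2 was called higher with IL-4/13 + Inf against control without a filter and in the 2-condition fit (adjusted P down to 0.0335).

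Without division by length the shares of the pair, in the order control, IL-4/13, Inf and all 5 cytokines, were 8.53, 6.98, 11.9 and 13.0% for Psmb8, 1.89, 2.34, 2.86 and 4.03% for Psmb9, and 24, 24, 28.2 and 32.0% for Psmb10. With the principal transcript, an alternative chosen after seeing the data, they were 3.98% with IL-4/13 and 6.92% with Inf for Psmb8, 1.13, 1.39, 1.71 and 2.42% for Psmb9, and 21.8, 21.8, 25.8 and 29.4% for Psmb10.

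Libraries of different conditions share replicate numbers. Same-numbered libraries did not deviate together (18 correlations, -0.146 to 0.0543), so the numbers were not taken as pairs. With the replicate block, 1, 8 and 9 of the 10 genes were higher than control with IL-4/13, with Inf and with all 5 cytokines. Beside these stood 388, 2382 and 1939 of the 14810 tested genes. For IL-4/13 + Inf against Inf 4 were higher and 1 lower, beside 1090 and 979 of the tested genes. Without the block the counts for the 10 genes were the same. Counts of Psmb8, Psmb9 and H2-T23 were low, which limits the precision of their fold changes.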
